A study of Mus musculus with 4 samples.

Results

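The genes described here are 10 components and targets of canonical Wnt signalling: Lgr4, Lgr5, Axin2, Lef1, Tcf7, Tcf7l1, Tcf7l2, Znrf3, Ccnd1 and Ctnnb1. They were chosen by symbol, and all 10 were found among the 15768 genes of the deposited gene table and passed the filter on low counts, which kept 12222 genes. Bulk RNA-seq libraries were made from JoMa1.3 cells, which come from mouse neural crest, 72 h after siRNA was transfected at 60 nM. The control group (genotype label WT) received a non-targeting siRNA pool and the other group (genotype label Lkb1 KD) a pool against Stk11, the gene of the kinase LKB1. Each group held 2 libraries, 1 in batch 1 and 1 in batch 2, and the aim of the series was to find effectors that lie downstream of Lkb1 loss in these progenitors. All 4 libraries came from 1 cell line, so they carry no differences between animals. JoMa lines are known to carry a Myc fusion that is switched on by tamoxifen. Per the labels' protocols the cells of both groups grew in DMEM and F-12 with N2 at 1%, B27 at 2%, EGF at 10 ng/mL, FGF at 1 ng/mL and chick embryo extract at 10%, and either of 2 transfection reagents was used, without a note of which sample received which. Neither a Wnt ligand nor an inhibitor of GSK3 is listed by name among these supplements. Whether any of them, the chick embryo extract included, carries Wnt activity was not tested.

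As background, Wnt ligands bind Frizzled and LRP receptors and stop a destruction complex, built on Axin and APC, from marking beta-catenin for degradation. Beta-catenin then enters the nucleus and acts with TCF and LEF proteins on target genes, which include Axin2 and Lef1 themselves. R-spondins bind LGR4 and LGR5 and take ZNRF3, a ubiquitin ligase that removes Frizzled, away from the membrane. In the neural crest, canonical Wnt signalling is known for its part in induction and in sensory and melanocyte fates.

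Library totals over all genes ran from 17426719 to 19324675 counts. Stk11 stood at 52.7 and 52.1 FPKM with control siRNA and at 36.3 and 36.9 FPKM with Lkb1 siRNA, and it fell by 31.7% (edgeR's quasi-likelihood test, adjusted p = 0.0378). Of 14 neural crest markers, 11 were in the table, and their summed level was between 189.8 and 204.2 FPKM, led by Snai2. Sox10, Foxd3 and Msx2 were not analysed here, and Ngfr lay between 0.51 and 0.80 FPKM. The 6 endothelial markers summed to between 0.47 and 0.63 FPKM, with overlapping groups. The sum of 2 of 6 macrophage markers, led by Cd68, was 1.07 and 1.04 FPKM in control and 1.59 and 1.26 FPKM in Lkb1 siRNA libraries, and that of 4 of 6 epithelial markers, led by Krt8, was 0.54 and 0.64 FPKM against 0.28 and 0.40 FPKM. The sum of 4 of 7 melanocyte markers was 3.22 and 2.66 FPKM in control and 2.38 and 1.85 FPKM in Lkb1 siRNA libraries, with Mlana at 1.65, 1.09, 0.76 and 0.26 FPKM (control, then Lkb1 siRNA, batch 1 first). The sum of 5 of 8 glial markers overlapped, between 2.39 and 3.61 FPKM, and its leading gene Erbb3 stood at 2.05 and 2.36 FPKM in control and at 1.44 and 1.43 FPKM in Lkb1 siRNA libraries (edgeR adjusted p = 0.139 without and 7.27e-06 with the batch as a block). All 6 smooth muscle markers were in the table, with a sum of 409.4 and 382.8 FPKM in control and 328.1 and 308.8 FPKM in Lkb1 siRNA libraries, led by Acta2, while Myh11 and Cnn1 lay between 0 and 0.07 FPKM. The sum of 3 of 9 neuronal markers was 9.40 and 9.14 FPKM in control and 13.4 and 10.5 FPKM in Lkb1 siRNA libraries, led by Tubb3, with Elavl3 at 0 in 3 of the 4 libraries. The smooth muscle, neuronal, melanocyte, macrophage and epithelial sums and Erbb3 did not overlap between the groups. Among all single genes tested, 42.7% did not overlap in CPM. The macrophage and epithelial sums were low. Within the smooth muscle list Des went the other way, at 0.25 and 0.15 FPKM in control and 0.31 and 0.45 FPKM in Lkb1 siRNA libraries. In the melanocyte list the groups of Mitf overlapped. The part of these marker differences in the results that follow was not tested. In bulk RNA, fewer cells of a type and less RNA per cell cannot be told apart.

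In control siRNA cells the 10 genes spanned a wide range of levels per transcript length. Ctnnb1 and Ccnd1 were among the most abundant genes tested and Lef1 was among the least abundant. Ctnnb1, which encodes beta-catenin, stood at 246.4 ± 2.66 FPKM (SD, n = 2), above 97.1% of the genes tested. Ccnd1, which encodes cyclin D1, stood at 149.3 ± 30.5 FPKM, above 95.1% of the genes. Lgr4 followed at 30.6 ± 5.44 FPKM and Tcf7l1 at 20.8 ± 1.90 FPKM, both in the upper part of the distribution.

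The middle of the order was held by Lgr5 at 9.32 ± 1.31 FPKM, Axin2 at 7.92 ± 1.07 FPKM, Tcf7l2 at 7.00 ± 0.495 FPKM and Tcf7 at 6.37 ± 0.304 FPKM (SD, n = 2). Among these, the control libraries of Lgr5 overlapped those of Axin2, and those of Axin2 overlapped those of Tcf7l2, so the order of these neighbours is not resolved. Znrf3 at 2.49 ± 0.226 FPKM and Lef1 at 0.855 ± 0.0212 FPKM were the lowest, with Lef1 above 9.14% of the genes. For every other pair of neighbours in this order, both control libraries of the higher gene lay above both of the lower, without a test.

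**Figure D1:**
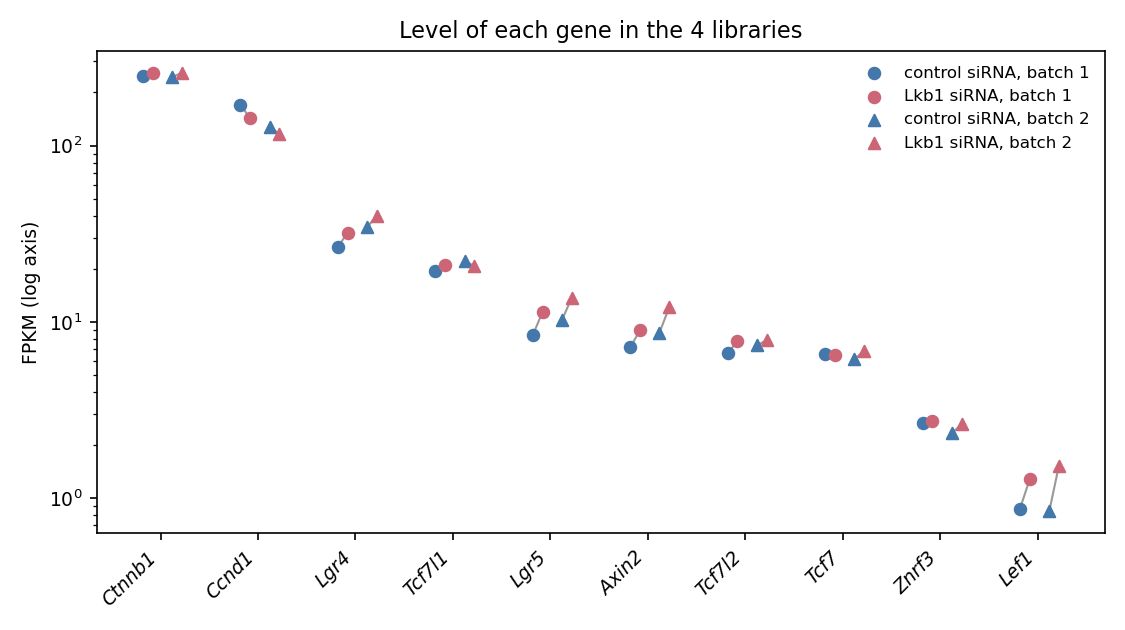
FPKM (log axis) of the 10 genes in each of the 4 libraries, ordered by the control mean, with circles for batch 1, triangles for batch 2, blue for control siRNA and red for Lkb1 siRNA, and a line joining the libraries of a batch. Levels run from Ctnnb1 at about 246.4 FPKM to Lef1 at 0.855 FPKM in control cells, and in both batches the red points of Lgr4, Lgr5, Axin2 and Lef1 lie above the blue ones while those of Ccnd1 lie below.

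Between the siRNA groups, Lgr5, Axin2, Lef1 and Lgr4 were higher and Ccnd1 was lower with Lkb1 siRNA in both batches. Over both batches together, in the fit without a block, these changes were between 15.0 and 52.7% in size. None of the 10 genes passed the threshold of 0.05 on the adjusted p in edgeR's quasi-likelihood test without a batch term, under which 10 of 12222 genes passed (0.0818%). DESeq2 and limma without a batch term also passed 0 of the 10. At an unadjusted p under 0.05 the test passed 3 of the 10, all higher (Lgr5, Axin2 and Lef1), where 11.1% of all genes passed and 5.61% were higher. With the batch as a replicate block, 5 of the 10 passed, 4 of them higher and 1 lower, where 13.6% of all genes passed (6.59% higher and 6.99% lower). The block is the batch given in the labels, and the calls made with it depended on the tool. With 4 libraries, edgeR's blocked fit leaves little to estimate each gene's own spread. Its p-values therefore rest mostly on a spread shared across genes. DESeq2 with the same block passed Ccnd1 alone of the 10 (adjusted p = 0.0315). There the adjusted p was 0.0794 for Lgr5, 0.215 for Axin2 and 0.262 for Lgr4, and DESeq2 gave none for Lef1, Tcf7 and Znrf3. The median log2 fold change of the 10 was 0.098, beside 0.000 over all genes tested.

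Lgr4 and Lgr5 are the R-spondin receptors among the 10 genes. Lgr5 (gene ID 14160), a marker of stem cells in several epithelia, stood at 8.39 and 10.24 FPKM in the control libraries of batch 1 and batch 2 and at 11.37 and 13.71 FPKM in the Lkb1 siRNA libraries. Both Lkb1 siRNA libraries lay above both control libraries. The mean of its counts scaled to library size was 41.6 ± 5.30 CPM with control and 54.7 ± 7.05 CPM with Lkb1 siRNA (SD, n = 2 in each). The log2 fold change was 0.395 (SE 0.113), or 31.5% (95% confidence interval 10.2 to 56.9%). The adjusted p was 0.273 without the block and 2.06e-07 with it in edgeR's quasi-likelihood test, and the change on the log2 scale was 0.393 in batch 1 and 0.397 in batch 2.

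Lgr4 (gene ID 107515), the broadly expressed relative, stood at 26.72 and 34.42 FPKM in control and at 31.9 and 40.05 FPKM in Lkb1 siRNA libraries. The groups overlapped, since the control library of batch 2 lay above the Lkb1 siRNA library of batch 1, but within each batch the Lkb1 siRNA library was the higher. Its change was 15.0% (95% confidence interval -5.48 to 40.0%, log2 fold change 0.20, SE 0.126), with an adjusted p of 0.578 without and 0.000906 with the block in edgeR's quasi-likelihood test. Within batches it was 0.21 and 0.19 on the log2 scale.

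Axin2 (gene ID 12006), a scaffold of the destruction complex and a widely used Wnt target gene, stood at 7.16 and 8.67 FPKM in control and at 8.95 and 12.08 FPKM in Lkb1 siRNA libraries. The groups did not overlap, though the control library of batch 2 lay close below the Lkb1 siRNA library of batch 1. Scaled counts averaged 31.8 ± 3.85 CPM with control and 41.7 ± 8.71 CPM with Lkb1 siRNA (SD, n = 2 in each), and the log2 fold change was 0.39 (SE 0.141), or 31.1% (95% confidence interval 5.23 to 63.3%). Its adjusted p in edgeR's quasi-likelihood test was 0.358 without and 5.53e-06 with the block. The change was 0.29 in batch 1 and 0.47 in batch 2 on the log2 scale.

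Lef1 (gene ID 16842), the least abundant of the TCF and LEF factors here, stood at 0.87 and 0.84 FPKM in control and at 1.28 and 1.53 FPKM in Lkb1 siRNA libraries. Both Lkb1 siRNA libraries were higher than both control libraries. The counts behind these values were 49 and 47 against 62 and 80. Their exact Poisson 95% intervals overlapped in batch 1, at 36.3 to 64.8 in control and 47.5 to 79.5 with Lkb1 siRNA. In batch 2 they lay apart by a small margin, at 34.5 to 62.5 and 63.4 to 99.6. These intervals are on counts not scaled to library size and cover counting error only. The log2 fold change was 0.61 (SE 0.224), or 52.7% (95% confidence interval 7.73 to 117%), and the adjusted p in edgeR's quasi-likelihood test was 0.358 without and 0.039 with the block. Within batches the log2 change was 0.40 and 0.81.

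Ccnd1 (gene ID 12443) encodes cyclin D1, which activates CDK4 and CDK6 in the G1 phase and is often listed as a Wnt target. Its level was 170.85 and 127.71 FPKM in control and 142.42 and 116.24 FPKM in Lkb1 siRNA libraries. The groups overlapped, since the control library of batch 2 lay below the Lkb1 siRNA library of batch 1, and within each batch the Lkb1 siRNA library was the lower. The log2 fold change was -0.24 (SE 0.140), or -15.5% (95% confidence interval -32.1 to 5.06%), and the adjusted p in edgeR's quasi-likelihood test was 0.548 without and 3.29e-05 with the block. On the log2 scale Ccnd1 differed by -0.31 in batch 1 and by -0.16 in batch 2.

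The remaining 5 genes passed in neither fit. Ctnnb1 stood at 248.26 and 244.5 FPKM in control and at 256.36 and 259.07 FPKM in Lkb1 siRNA libraries, and its difference was 2.09% (95% confidence interval -7.33 to 12.5%). Its Lkb1 siRNA libraries lay above its control libraries by a small margin. Tcf7l1, which mostly represses targets in the absence of beta-catenin, stood at 19.5, 22.19, 20.96 and 20.71 FPKM in control batch 1, control batch 2, Lkb1 siRNA batch 1 and Lkb1 siRNA batch 2, a difference of -2.23% (interval -13.8 to 10.9%). Tcf7 in the same order stood at 6.58, 6.15, 6.49 and 6.82 FPKM, a difference of 2.31% (interval -14.4 to 22.3%). For both, the groups overlapped and the sign of the change differed between the batches.

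Tcf7l2, the main TCF factor of the intestinal epithelium, stood at 6.65 and 7.35 FPKM in control and at 7.75 and 7.87 FPKM in Lkb1 siRNA libraries. Its groups did not overlap, but the difference of 8.53% came with a 95% interval of -5.82 to 25.1%. Znrf3 stood at 2.65 and 2.33 FPKM in control and at 2.75 and 2.62 FPKM in Lkb1 siRNA libraries, with overlapping groups and a change of 5.50% (interval from -12.2 to 26.8%). Counting all 10, the groups did not overlap in CPM for Lgr5, Axin2, Lef1, Tcf7l2 and Ctnnb1, all 5 higher with Lkb1 siRNA, and this holds for 42.7% of all genes tested, 21.2% being higher. The sign was the same in both batches for 8 of the 10, with Ctnnb1 only 0.0312% higher in batch 1, where 67.2% of all genes had the same sign. Of these 8, 7 were higher in both batches and 1 lower, beside 33.8 and 33.4% of all genes.

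**Figure D2:**
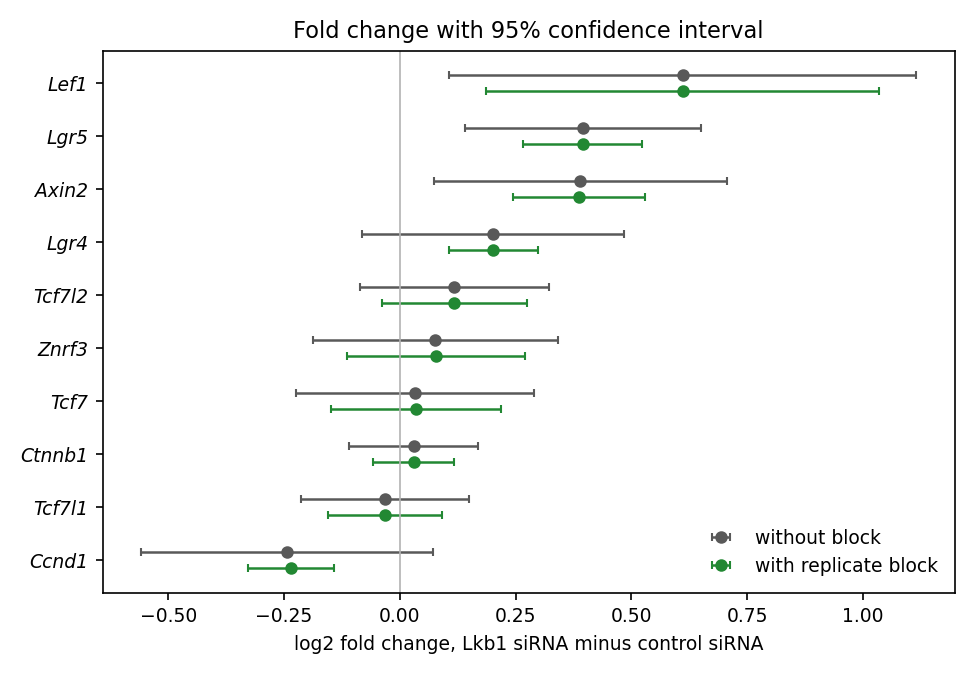
Log2 fold change of the 10 genes, Lkb1 siRNA minus control siRNA, with 95% confidence intervals from edgeR without a block (grey) and with the batch as a replicate block (green). Point estimates are nearly equal in both fits and the intervals are narrower with the block. Those of Lef1, Lgr5 and Axin2 lie above 0 in both fits, while that of Lgr4 lies above 0 and that of Ccnd1 below 0 only with the block.

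Some of these genes also differed between the batches. With the siRNA group as a covariate, Lgr4 was 1.26 times as high in batch 2 as in batch 1 (edgeR, adjusted p = 6.07e-09), Axin2 was 1.27 times as high (adjusted p = 1.00e-04) and Lgr5 was 1.2 times as high (adjusted p = 0.00162). Ccnd1 was 0.772 times as high in batch 2 (adjusted p = 1.96e-12). The other 6 did not pass, Lef1 among them at 1.07 times (adjusted p = 0.822), and over all genes 12.9% passed between the batches (6.3% higher and 6.62% lower in batch 2). For Lgr4 the difference between batches, 0.33 on the log2 scale, was larger than the change with Lkb1 siRNA of 0.20, and for Ccnd1 -0.37 stood beside -0.24. Both comparisons use the same 4 libraries. Leaving out 1 library leaves the batches unequal, and the unblocked log2 fold changes then moved widely. Each such fit has 1 library in a group, which is assumed to vary like the 2 libraries of the other, so its p-values rest on the spread of those 2, moderated across genes. Without the Lkb1 siRNA library of batch 2, the value was 0.034 for Lgr4, 0.160 for Axin2, 0.259 for Lgr5 and -0.100 for Ccnd1, and without the control library of batch 1 they were 0.043, 0.274, 0.272 and -0.003. Without the control library of batch 2 they were 0.380, 0.520, 0.532 and -0.451, and in edgeR Lgr5 (adjusted p = 0.00882) and Ccnd1 (adjusted p = 0.0412) came under the threshold on that assumption. Without the Lkb1 siRNA library of batch 1 they were 0.356, 0.590, 0.523 and -0.399, and in edgeR Lgr5 (adjusted p = 0.0126) and Axin2 (adjusted p = 0.00576) came under it on the same assumption.

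**Figure D3:**
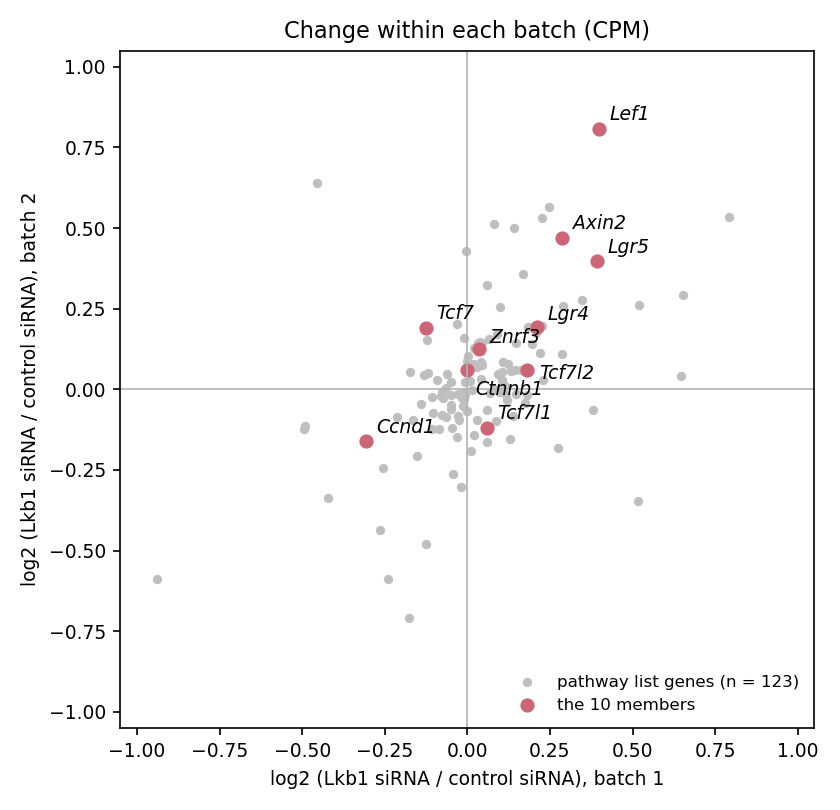
Log2 ratio of Lkb1 siRNA to control siRNA in CPM within batch 1 (x axis) and batch 2 (y axis), with 1 library per point and axis side, for the 10 genes (red) and for 123 tested genes of the pathway lists (grey), 5 of which lie outside the axes. Lef1, Axin2, Lgr5 and Lgr4 lie in the upper right, Ccnd1 lies in the lower left, and Tcf7 and Tcf7l1 change sign between the batches.

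Per transcript length, Tcf7l1 was the main TCF/LEF factor of these cells. It held 58.0 and 60.7% of the summed FPKM of the 4 factors in control and 57.5 and 56.1% in Lkb1 siRNA libraries. Tcf7l2 held between 19.8 and 21.3% and Tcf7 between 16.8 and 19.6% over the 4 libraries. Lef1 held 2.59 and 2.30% in control and 3.51 and 4.14% in Lkb1 siRNA libraries, and the sum of all 4 stayed between 33.6 and 36.93 FPKM. Among the D cyclins, Ccnd1 held 53.0 and 49.3% in control and 47.6 and 45.7% in Lkb1 siRNA libraries, with Ccnd2 between 23.1 and 25.3% and Ccnd3 between 23.9 and 29.0%. No test was made on shares.

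**Figure D4:**
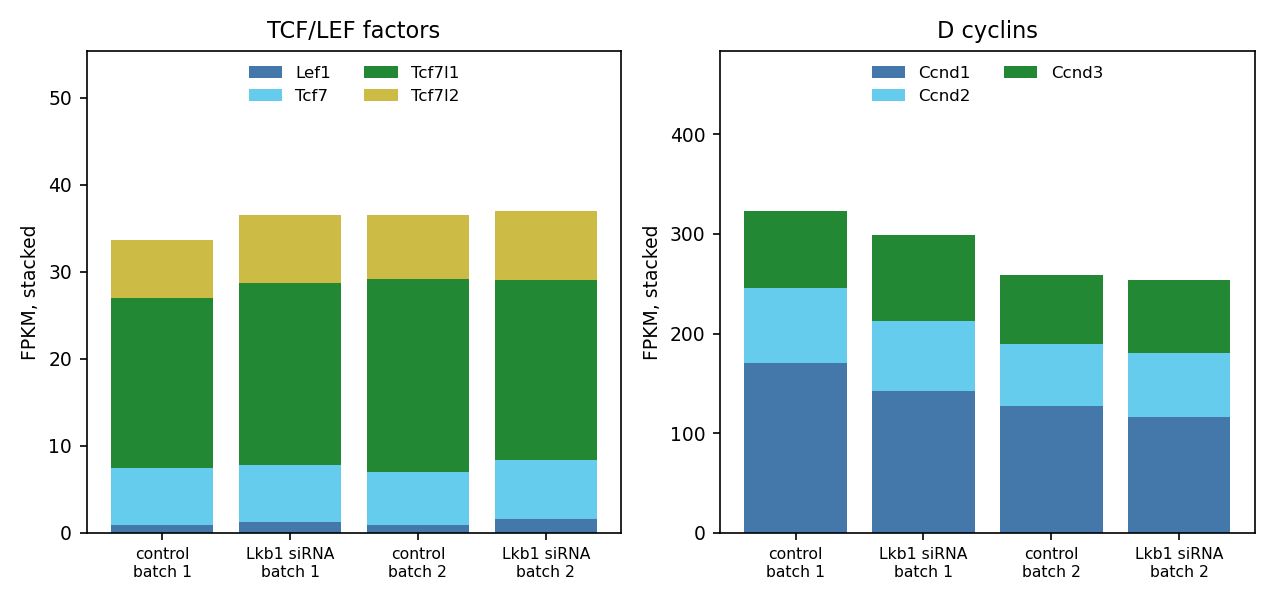
Stacked FPKM of each TCF/LEF factor and each D cyclin in the 4 libraries. Tcf7l1 takes more than any other TCF/LEF factor in every library. As a share of the summed FPKM, Lef1 holds 2.30 to 2.59% in control and 3.51 to 4.14% in Lkb1 siRNA libraries. Ccnd1 holds between 45.7 and 53.0% of the D cyclin sum.

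The transcript table listed 67 transcripts of the 10 genes, 45 of which were tested, and none passed edgeR's test with or without the block (lowest adjusted p 0.687 and 0.925). Of all 34279 transcripts tested 0 (0.0%) passed in either fit, while 2 of the 45 and 6.75% of all transcripts had an unadjusted p under 0.05. These belong to Axin2 and Lgr4. For Axin2, NM_015732 (coding length 2520 nt in GENCODE) stood at 2.66 and 3.16 FPKM in control and at 5.90 and 7.06 FPKM in Lkb1 siRNA libraries. It held 37.1 and 36.4% of the gene's counts in control and 65.3 and 57.7% in Lkb1 siRNA libraries. Another Axin2 transcript, XM_030245493, was listed at 2.63 and 1.89 FPKM in control and at 0 and 1.49 FPKM with Lkb1 siRNA, and the uncertainty of assigning reads to transcripts was not modelled. The Lgr4 transcript NM_172671 held 87.9 to 93.6% of the gene's counts, and XM_036157249, the other of the 2, stood at 3.22 and 3.46 FPKM in control and at 2.51 and 2.55 FPKM in Lkb1 siRNA libraries (adjusted p = 0.688, edgeR). Among the 5 transcripts of Lef1, NM_010703 ranged from 0.14 to 0.96 FPKM with overlapping groups, and the other 4 were at 0 in some library. The counting strand was not given, and by RefSeq 6 of the 10 genes overlap another gene, with which reads could be shared. Lgr5 overlaps A930009A15Rik, Tcf7l1 overlaps 4 genes (lncRNAs and a pseudogene), Tcf7l2 overlaps Gm31734 and Ctnnb1 overlaps Mir7090, and no values of these partners were analysed here. Tcf7 overlaps Skp1 and Ccnd1 overlaps LTO1, which have values. Skp1 (log2 fold change -0.027) and LTO1 (0.016) did not pass.

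Promoter windows of RefSeq (build GRCm38.p6, 250 bases before to 50 after a start) were held for 7 of the 10 genes, in 13 windows. They are shown for Lgr4, Axin2 and Lef1, which passed in the blocked fit and were higher. The TCF/LEF letters CTTTGAT and CTTTGAA were in 0 of the 13 windows on either strand, and in 8.65% of all 32851 windows. The shorter CTTTG, which is part of both and was chosen after the first result was seen, was in 7 of the 13 and in 53.9% of all windows. Capitals mark CTTTG on the printed strand, where the printed Lef1 window holds it 2 times and the others do not. The windows lie at chr2:109917397-109917696 for Lgr4, at chr11:108920099-108920398 for Axin2 and at chr3:131110047-131110346 for Lef1, all on the + strand. Lef1 has 4 windows, of which the one printed is the farthest upstream. No GENCODE transcript starts within 50 bases of its start, and the window that begins at 131112541 has 3 GENCODE starts there. The other 3 windows of Lef1 hold CTTTG 2, 1 and 3 times on either strand. The window with 2, at chr3:131110073-131110372, overlaps the printed one, and its 2 sites are the same as those printed.
Lgr4: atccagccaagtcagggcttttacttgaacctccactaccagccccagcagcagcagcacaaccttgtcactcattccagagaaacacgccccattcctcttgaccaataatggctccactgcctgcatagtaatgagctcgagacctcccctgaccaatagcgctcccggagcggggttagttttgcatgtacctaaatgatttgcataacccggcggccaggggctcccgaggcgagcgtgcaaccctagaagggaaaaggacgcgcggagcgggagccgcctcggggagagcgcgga
Axin2: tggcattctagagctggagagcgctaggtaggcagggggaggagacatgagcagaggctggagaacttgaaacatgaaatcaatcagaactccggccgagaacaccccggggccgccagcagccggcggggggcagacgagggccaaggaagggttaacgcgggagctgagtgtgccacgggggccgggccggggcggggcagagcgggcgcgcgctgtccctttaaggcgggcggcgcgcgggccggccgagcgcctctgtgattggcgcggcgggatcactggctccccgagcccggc
Lef1: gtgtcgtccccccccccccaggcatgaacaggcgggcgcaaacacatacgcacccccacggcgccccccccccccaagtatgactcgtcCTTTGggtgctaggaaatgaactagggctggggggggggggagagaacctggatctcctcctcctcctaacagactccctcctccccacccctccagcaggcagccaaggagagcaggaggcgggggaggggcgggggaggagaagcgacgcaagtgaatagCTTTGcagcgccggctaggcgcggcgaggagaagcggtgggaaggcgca

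The lists of other pathway genes held 144 genes in the table, 123 of them tested. Without the block none passed in edgeR, and DESeq2 passed 1, Tle2 (adjusted p = 0.00188). With the block 14 passed higher and 4 lower in edgeR (14.6% in all, beside 13.6% of all genes). DESeq2 with the same block passed 2 of these 18, Tle2 (adjusted p = 1.04e-05) and Vegfa (adjusted p = 0.0361), both higher. For 9 others its adjusted p was above the threshold, 3 of the 4 lower genes (Bmp4, Myc and Ccn4) among them, and for 7 it gave none, Sfrp1, the other lower gene, among them. The block calls named for the lists that follow are therefore edgeR's, and all but those of Tle2 and Vegfa were not made by DESeq2. The median log2 fold change was 0.036.

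Among the ligands, 2 of 11 tested genes passed higher with the block. Wnt10b, a canonical ligand, stood at 5.85 and 9.18 FPKM in control and at 10.03 and 11.76 FPKM in Lkb1 siRNA libraries, with a log2 fold change of 0.45 (edgeR, adjusted p = 0.394 without and 1.20e-05 with the block). Wnt7b, named after its values were seen, was the other, at 13.49, 9.31, 13.87 and 12.78 FPKM. The order is control batch 1, control batch 2, Lkb1 siRNA batch 1 and Lkb1 siRNA batch 2, and it is kept for the values that follow. In CPM the log2 change of Wnt7b was -0.005 in batch 1 and 0.429 in batch 2, so its rise was seen in batch 2 only. The adjusted p of Wnt7b in edgeR was 0.686 without and 0.0403 with the block. The secretion factor Wls and the ligand Wnt6 were the most abundant, at 106.9 to 120.4 and 50.7 to 58.8 FPKM, and Wnt5a, a mostly non-canonical ligand, lay between 19.4 and 22.6 FPKM. Neither R-spondin tested passed: Rspo2 stood at 7.24, 11.7, 8.54 and 11.58 FPKM, higher in batch 2 in both groups, and Rspo3 lay between 1.08 and 1.59 FPKM.

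Among the receptors, 2 of 16 passed higher with the block, Ror1 (3.07, 3.0, 3.49 and 4.30 FPKM, adjusted p = 0.37 without and 0.00672 with the block in edgeR) and Fzd3, the latter named after its values were seen. Ror1 is a receptor of non-canonical Wnt ligands. Ptk7 and Ryk, other co-receptors, were the most abundant at 92.6 to 99.6 and 64.7 to 66.3 FPKM. Fzd9 had the receptor list's highest log2 fold change, 1.21, from 0.24, 0.09, 0.35 and 0.42 FPKM, with an edgeR adjusted p of 0.116 in the blocked fit. Among the 8 extracellular inhibitors tested, Sfrp1, which binds Wnt ligands, passed lower with the block (2.44, 2.48, 1.87 and 2.00 FPKM, edgeR adjusted p = 0.358 without and 0.034 with it). Apcdd1 and Kremen1, the most abundant inhibitors, lay between 15.2 and 19.2 FPKM and did not pass.

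In the destruction complex and its relays, 3 of 23 passed higher with the block: Dvl1, which relays the signal from Frizzled, Ccdc88c, a binding partner of Dishevelled, and Csnk1e, a casein kinase. Dvl1 stood at 20.62, 21.17, 24.88 and 24.66 FPKM (edgeR adjusted p = 0.319 without and 0.00479 with the block). The casein kinases Csnk1g2 and Csnk1d were the most abundant, between 77.2 and 94.8 FPKM. The nuclear partners gave 3 of 22 higher, namely Tle2 and Tle4, co-repressors that bind TCF factors, and Ep300, an acetyltransferase. Tle2 had the smallest adjusted p of the pathway lists with the block, at 15.43, 21.13, 27.58 and 31.42 FPKM, a log2 fold change of 0.65 (edgeR adjusted p = 0.125 without and 3.20e-24 with the block). DESeq2 without the block gave Tle2 an adjusted p of 0.00188. Tle5 (432.7 to 468.9 FPKM), another member of the Tle family, and Ctbp1 (127.7 to 132.1 FPKM), a co-repressor, did not pass. They were the most abundant of the list. Csnk1e and Tle4 were named after their values were seen.

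Of 27 other reported targets, 2 passed higher and 3 lower with the block. Vegfa, an angiogenic factor, stood at 32.65, 35.62, 43.42 and 44.87 FPKM and Bmp4, a growth factor, at 17.69, 20.21, 15.49 and 13.72 FPKM (edgeR adjusted p with the block 9.88e-08 and 6.51e-06). Pax3 was the other higher gene, and Myc and Ccn4 the other lower ones, all named after their values were seen. Myc, a growth regulator, stood at 23.44, 21.16, 20.15 and 15.92 FPKM (edgeR adjusted p = 0.344 without and 2.05e-05 with the block). Whether reads of the Myc fusion known in JoMa lines entered these values was not tested. Cd44 and Jun, the most abundant, did not pass. The cyclin list gave 1 of 8, Ccne1 (19.49, 17.95, 24.66 and 21.87 FPKM), and the cadherin list 1 of 6, Cdh6 (1.16, 0.99, 1.39 and 1.45 FPKM), both higher. Cdk4, the partner of cyclin D1, stood between 575.1 and 648.8 FPKM and did not pass, nor did Ctnna1, which links cadherins to actin, between 133.7 and 137.4 FPKM.

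**Figure D5:**
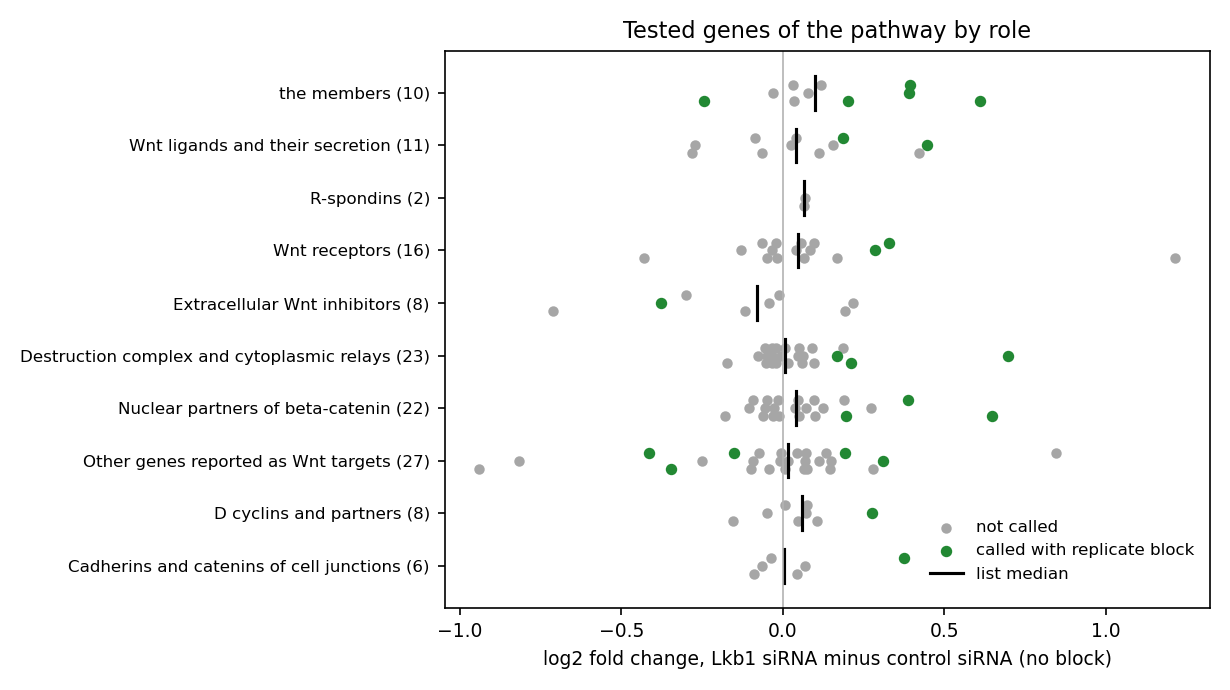
Log2 fold change without block, Lkb1 siRNA minus control siRNA, of each tested gene in the 9 pathway lists and the 10 genes of this account, with green points for those that passed with the replicate block and a bar for the list median. List medians lie between -0.080 and 0.066, and the 10 genes have a median of 0.098.

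For the gene with the smallest p, Lgr5, the 3 genes with the most similar pattern over the 4 libraries were Ints6l, Zfp950 and Dmpk, by the root mean square distance between deviations of log2 CPM from each gene's mean (0.0165, 0.0212 and 0.023). The median distance over 12221 genes was 0.251, and 29 genes lay within 0.05. Their log2 fold changes were 0.40, 0.41 and 0.46.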

How the data were processed

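Reads were processed by the authors with RSEM 1.2.8, Bowtie2 2.2.5 and HISAT2 2.0.4 on build GRCm39, per the submitters' processing notes, which state no role or order. Per the file headers, the deposited tables hold FPKM, TPM, read counts and normalised read counts of every library. The read counts are expected counts estimated by the authors, of which 5.73 to 5.97% per library were not whole. The authors' normalised read count is a signal, the count raised to the next whole number times 1 factor per library, and it entered no test; nor did the deposited TPM. The authors' deposited FPKM is relative to transcript length and depth. A doubled decimal point in 41 gene and 96 transcript cells was read as a single point.

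Counts were rounded and tested with edgeR 4.0.16 (R 4.3.3; quasi-likelihood F-test, robust, TMM, expression filter with minimum count 10), adjusted by Benjamini-Hochberg over 12222 genes or 34279 transcripts, threshold 0.05. DESeq2 1.42.0 and limma 3.58.1 were alternatives. The scripts were tested on simulated data. The labels give the batch shared by same-numbered libraries, so the numbers pair the libraries: deviations correlated by 0.259 over 12222 genes, and a principal component with 37.7% of the variance separated the batches. The labels do not say whether cultures were independent, so p-values measure the spread between these libraries, moderated across genes. In edgeR's blocked fit they rest mostly on the spread shared across genes. Named genes were the members, Stk11, up to 4 per list (the 2 highest in control FPKM and the 2 with the smallest p), and 3 genes nearest to 1 member. The members, lists and rules were chosen with earlier results of these data known. Gene overlaps and promoter windows came from RefSeq tables of another build (GRCm38) than the files, by name. Coding lengths came from GENCODE M21.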

Additional observations from a re-analysis of the deposited data

How the results depend on the processing

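Without a block, 0 of the 10 genes passed; with the replicate block 5 did, with DESeq2 and the replicate block 1 did, and leaving out 1 library gave 0 to 2. Fits without 1 library have a lone library in a group, assumed to vary like the other group. Over all genes, 10 passed without a block, against 1660 with the replicate block (the pairing of libraries by batch), 49 with DESeq2, 125 with DESeq2 and the block, 45 when genes needed only 1 count, 4 with a mean of at least 5 CPM, 3 with library size alone, 0 and 0 with limma on log2(FPKM + 1) and log2(FPKM + 0.1), and 66 to 253 without 1 library. Of the pathway genes 0 passed without a block, 18 with the block, 1 with DESeq2, 2 with DESeq2 and the block, and 1 to 4 without 1 library. The batch comparison and the transcripts gave the same counts under each alternative run, 4 and 0. The unblocked log2 fold change changed sign for Tcf7 (-0.060 without the control and -0.031 without the Lkb1 siRNA library of batch 2, range -0.060 to 0.130), for Tcf7l1 (0.049 without the control library of batch 2, range -0.110 to 0.049, and 0.002 and 0.002 with limma) and for Znrf3 (-0.021 without the control library of batch 2, range -0.021 to 0.179); the cause was not tested. No scaling moved the median of all genes by more than 0.035. Lef1 was not tested at a mean of at least 5 CPM. Lef1, with 47 to 80 counts per library, is the gene here that depth limits most, and a group of 2 libraries limits every interval given.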

Other observations

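Some genes with a known place in the pathway fell outside the rule for named genes and are given here as values, chosen after they were seen. All of those that follow after Ephb2 and Edn1 had a higher mean with Lkb1 siRNA. Of the 27 other reported targets tested, the mean was higher for 15 and lower for 12, with a median log2 fold change of 0.016. Ephb2 (log2 fold change -0.249) and Edn1 (-0.94), 2 of these targets, were lower in both batches. Lgr6, the other R-spondin receptor, stood at 7.82 and 7.94 FPKM in control and at 8.73 and 8.73 FPKM in Lkb1 siRNA libraries, with an adjusted p of 0.387 with the block in edgeR. Sp5, a transcription factor and direct Wnt target, stood at 0.62 and 0.52 FPKM in control and at 0.93 and 1.17 FPKM in Lkb1 siRNA libraries, with a log2 fold change of 0.85 and an adjusted p of 0.358 without and 0.0545 with the block in edgeR. Notum, a secreted inhibitor and Wnt target, stood at 3.89, 4.47, 4.72 and 5.18 FPKM (adjusted p = 0.399 with the block in edgeR). Rnf43, the relative of Znrf3, lay between 0.03 and 0.21 FPKM and was not tested. Axin1, the constitutive relative of Axin2, stood at 33.26, 31.7, 34.27 and 33.75 FPKM, so in control libraries it was above Axin2 per transcript length.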
